A study of Mus musculus with 12 samples.

Results

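The data described here are those of 10 marker genes, chosen by name, of 37310 gene identifiers counted. Csf1r, Cx3cr1, C1qa, C1qb and Tyrobp mark microglia. Cldn5, Flt1, Pecam1, Slco1a4 and Slc2a1 mark endothelium. For each gene the level in RNA bound to tagged ribosomes was set against the level in total RNA of the same tissue, and FosB KO was set against WT.

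The study asked which mRNAs depend on FosB in ventral hippocampus (vHPC) neurons that project to nucleus accumbens (NAc), using translating ribosome affinity purification (TRAP), in which ribosomes carrying a GFP-tagged L10a subunit are pulled down with anti-GFP antibodies. All mice were C57BL/6, carried the Cre-dependent Rosa26 eGFP-L10a allele and received a retrograde herpes simplex vector, HSV-hEf1α-Cre, in NAc 3 weeks before tissue was taken. The KO group was FosB fl/fl, so that Cre removed FosB exons 2 and 3, and the WT group was littermates without the floxed allele that received the same vector. The age of these mice was not given in the sources used here. Punches of vHPC were pooled from 3 mice per pool by the labels (3–4 by the methods), and each of 3 WT pools (numbered 1, 2 and 3) and 3 KO pools (numbered 2, 3 and 4) gave 1 TRAP and 1 input library, 12 libraries in all. A library whose label does not say input was taken as TRAP. Cre reached only cells that took up the vector, so the KO input holds deleted and undeleted cells together, and hEf1α is a promoter that is active in many cell types. The labels call the tissue hippocampus neurons, while input is RNA of the whole punch.

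Microglia are the resident macrophages of the brain. They depend on signalling through the receptor CSF1R, sense the neuronal chemokine CX3CL1 through CX3CR1, make the complement starter C1q, and pass signals of receptors such as TREM2 through the adaptor TYROBP (DAP12). Endothelial cells line the capillaries and form the blood-brain barrier: CLDN5 seals their tight junctions, FLT1 binds VEGF, PECAM1 joins cell to cell, SLCO1A4 carries organic anions and SLC2A1 (GLUT1) carries glucose. Neither cell type is known to send axons, and both can enter a total RNA sample of a punch.

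The promoters of genes that moved together are shown because 7 of these genes were called lower in TRAP while Slc2a1, with more reads than the rest in TRAP, was not. Cldn5 and Pecam1 had too few reads to be tested. RefSeq promoters of build GRCm38.p6 were found for 6 of the 10 genes, and the 250 bases before the start of 5 of them are given 5′ to 3′ on the strand of the gene. No entry was found for Csf1r, C1qa, Tyrobp and Pecam1, and Cldn5 is not printed because it did not pass the filter on low counts. Capitals mark every match, on either strand, to GAGGAA (letters bound by the macrophage factor PU.1), CAGGAA (letters bound by ETS factors) and ACGTG (the core bound by hypoxia-inducible factors). GAGGAA and CAGGAA share the letters AGGAA but cannot match at the same place. Of 32851 promoters in the table, 23.3% held GAGGAA, 25.7% CAGGAA and 16.6% ACGTG in this window.
Cx3cr1: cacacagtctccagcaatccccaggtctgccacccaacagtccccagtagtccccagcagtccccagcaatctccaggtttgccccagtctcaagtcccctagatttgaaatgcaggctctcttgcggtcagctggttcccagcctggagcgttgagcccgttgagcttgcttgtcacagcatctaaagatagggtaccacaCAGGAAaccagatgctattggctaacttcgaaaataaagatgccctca
C1qb: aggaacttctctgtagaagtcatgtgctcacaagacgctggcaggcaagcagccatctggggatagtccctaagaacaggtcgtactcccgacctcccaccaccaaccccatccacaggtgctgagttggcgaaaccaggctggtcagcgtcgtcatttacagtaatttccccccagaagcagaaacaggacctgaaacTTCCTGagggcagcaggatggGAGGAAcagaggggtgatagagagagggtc
Flt1: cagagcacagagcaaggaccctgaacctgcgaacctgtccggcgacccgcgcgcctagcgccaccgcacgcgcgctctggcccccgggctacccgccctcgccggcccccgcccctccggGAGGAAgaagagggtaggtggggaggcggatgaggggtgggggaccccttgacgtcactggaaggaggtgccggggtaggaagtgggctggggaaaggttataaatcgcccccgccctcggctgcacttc
Slco1a4: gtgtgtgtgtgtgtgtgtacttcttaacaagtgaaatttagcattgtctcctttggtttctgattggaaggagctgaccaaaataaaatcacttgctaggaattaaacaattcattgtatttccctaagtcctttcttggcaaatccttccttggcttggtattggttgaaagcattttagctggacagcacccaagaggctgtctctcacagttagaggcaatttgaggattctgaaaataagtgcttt
Slc2a1: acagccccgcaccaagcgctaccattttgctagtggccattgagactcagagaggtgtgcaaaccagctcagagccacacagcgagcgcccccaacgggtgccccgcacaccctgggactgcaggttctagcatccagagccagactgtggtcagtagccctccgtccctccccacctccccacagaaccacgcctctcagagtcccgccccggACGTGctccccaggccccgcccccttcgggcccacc
Cx3cr1 (minus strand, chr9:120068297-120068546) held 1 CAGGAA, 48 bases before the start. C1qb (minus strand, chr4:136886201-136886450) held GAGGAA 30 bases before the start and CAGGAA on the other strand 51 bases before it. Flt1 (minus strand, chr5:147726012-147726261) held 1 GAGGAA 130 bases before the start, Slco1a4 (minus strand, chr6:141856221-141856470) held none of the 3, and Slc2a1 (plus strand, chr4:119108495-119108744) held 1 ACGTG, 36 bases before its start. The share of G and C was 39.2% in the Slco1a4 promoter, 53.6% for Cx3cr1, 55.2% for C1qb, 66.4% for Slc2a1 and 70.4% for Flt1. These matches describe letters and were not tested against the counts.

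Libraries held 3416030–5614089 counts on genes (median 4296056), and 3 reads, the limit that a count of 0 allows, come to 0.533–0.870 CPM, for counting error only. CPM are edgeR's read counts scaled to a common library size with TMM factors, and levels between genes are compared only per kilobase (kb) of exon. The mitochondrial genome gave 5.29–9.05% of counts in input and 0.0305–0.130% in TRAP. The targeted gene, Fosb, had 254, 136 and 151 reads in WT TRAP and 105, 77 and 88 in KO TRAP, so the groups did not overlap (39.1 ± 6.65 against 23.2 ± 5.46 CPM, SD, n = 3), and input went the same way (25.6 ± 4.11 against 15.9 ± 1.11 CPM). A gene total also counts the exons that Cre leaves. Fosb did not pass the test between genotypes (edgeR, log2 KO minus WT −0.76 ± 0.21, SE, adjusted p = 0.337 in TRAP). Neuron genes of a list of 15 summed to 107–122% in TRAP of their input level.

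In total RNA of vHPC punches the microglia genes were well above the floor. Their summed level was 78.5 ± 20.7 CPM in WT input and 82.4 ± 22.1 CPM in KO input (SD, n = 3 each), with 54.7 CPM in the lowest library (WT pool 2) and 107.7 CPM in the highest (KO pool 2). The summed level of the endothelium genes was 17.4 ± 6.22 CPM in WT input and 26.0 ± 4.66 CPM in KO input, and Slc2a1 alone made up 32.1–71.4% of the reads of the 5 genes there. Per kb of exon, the order in input over 6 libraries was C1qb (16.7 ± 4.16 CPM per kb), Tyrobp (16.2 ± 5.01), C1qa (12.8 ± 5.44), Cx3cr1 (4.75 ± 0.678), Csf1r (4.24 ± 1.25), Slc2a1 (3.34 ± 0.474), Slco1a4 (0.824 ± 0.546), Cldn5 (0.614 ± 0.453), Flt1 (0.554 ± 0.243) and Pecam1 (0.385 ± 0.232). Neighbours in this order overlapped in their libraries at every step except from Slc2a1 to Slco1a4. In TRAP the order was another one: Slc2a1 came first (2.89 ± 0.854 CPM per kb), ahead of Tyrobp (1.5 ± 1.63), C1qb (1.41 ± 1.55) and C1qa (1.11 ± 0.848), and every neighbouring pair overlapped. KO pool 2 held the highest input level of 8 of the 10 genes.

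**Figure D1:**
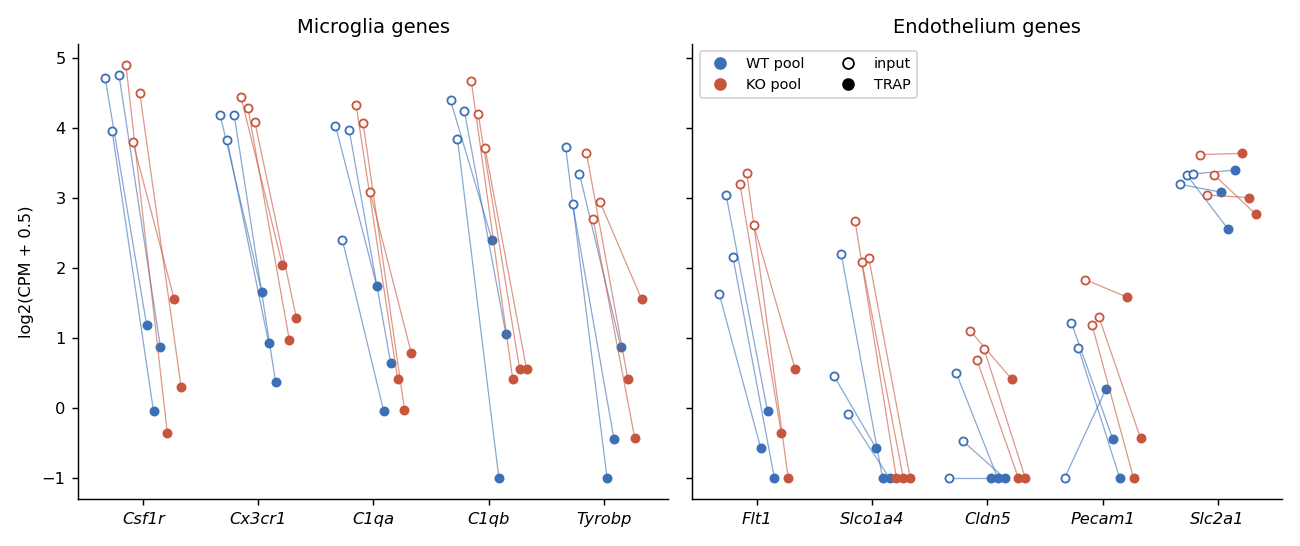
Level of each gene in log2(CPM + 0.5) (vertical axis), for 5 microglia and 5 endothelium genes. Open circles are input and filled circles TRAP of the same pool, joined by a line, with WT in blue and KO in red. All lines of the microglia genes fall steeply, while those of Slc2a1 stay between 5.41 and 12 CPM.

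All 5 microglia genes were much lower in TRAP than in input. Summed over the 5, the TRAP level was 13%, 4.73% and 6.95% of input in WT pools 1, 2 and 3 and 5.96%, 7.69% and 10.99% in KO pools 2, 3 and 4, a median of 7.32%. Each gene passed the edgeR test over both genotypes, with log2 differences between −4.17 and −3.13 (median −3.57, against −0.01 over all genes tested). In that comparison 22.5% of 13214 genes tested were called lower, among them 7 of the 8 marker genes that passed the filter: all 5 microglia genes and 2 of 3 endothelium genes. None of the 7 passed the filter in the TRAP libraries alone, so they were tested only through their input level, which tilts such a count to lower, and it is given as a description.

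Csf1r (ENSMUSG00000024621.8, mm9 chr18:61265226-61291803, plus strand, 23 exons) encodes the receptor for CSF1 and IL-34 on which microglia depend. Its input level was 25.8, 15.1 and 26.6 CPM in WT pools 1, 2 and 3 and 29.6, 13.5 and 22.2 CPM in KO pools 2, 3 and 4. The TRAP level was 1.78, 0.470 and 1.33 CPM in WT and 0.279, 2.44 and 0.733 CPM in KO. Every TRAP library was below every input library, at a median share of 4.14% (0.943–18.0%), with KO pool 3 the highest and KO pool 2, on 1 read, the lowest. The log2 difference was −4.17 ± 0.34 (SE, adjusted p = 3.2e-10), and the exact two-sided sign-flip permutation test over 6 pools gave p = 0.031, the smallest it can give. Of the exon bases, 871 overlap Hmgxb3 on the other strand, and the strand setting of the counting was not stated, so that reads of these bases are uncertain. Without KO pool 3 the log2 difference was −4.85.

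Cx3cr1 (ENSMUSG00000052336.5, chr9:119957811-119977400, minus strand, 2 exons) encodes the receptor for CX3CL1. Input held 17.7, 13.7 and 17.8 CPM in WT and 21.3, 19.1 and 16.6 CPM in KO, in pool order. TRAP held 2.67, 1.41 and 0.797 CPM in WT and 3.63, 1.46 and 1.95 CPM in KO. It was the least reduced of the 5 by point estimate (log2 difference −3.13 ± 0.28, adjusted p = 1.0e-09) and had the highest median share, 11% (4.47–17%). No library was without a read, and TRAP and input did not overlap (exact sign-flip p = 0.031).

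C1qa and C1qb encode chains of C1q, the first component of the classical complement pathway, and lie near each other on the minus strand (C1qa, ENSMUSG00000036887.5, chr4:136451832-136454718, 3 exons, and C1qb, ENSMUSG00000036905.8, chr4:136436044-136442102, 3 exons). C1qa had 16.0, 4.81 and 15.2 CPM in WT input and 19.6, 16.4 and 8.06 CPM in KO input, against 2.85, 0.470 and 1.06 CPM in WT TRAP and 0.837, 0.488 and 1.22 CPM in KO TRAP. C1qb had 20.6, 14.0 and 18.5 CPM in WT input and 25.1, 18.0 and 12.6 CPM in KO input, against 4.80, 0 and 1.59 CPM in WT TRAP and 0.837, 0.975 and 0.977 CPM in KO TRAP. WT pool 1 had the highest TRAP level of both genes, and the 0 of C1qb in WT pool 2 stands beside 61 reads in the input of that pool, where the exact 95% interval of the share ends at 6.40%. TRAP was below input in every library, with log2 differences of −3.50 ± 0.41 (adjusted p = 1.6e-07) for C1qa and −3.60 ± 0.43 (adjusted p = 1.9e-06) for C1qb, which was −4.31 without WT pool 1. The third chain, C1qc, from the list of further microglia genes, was lower too (log2 difference −3.45 ± 0.43, adjusted p = 1.9e-06).

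Tyrobp (ENSMUSG00000030579.9, chr7:31198807-31202596, plus strand, 5 exons) encodes the adaptor that carries TREM2 signals. Input held 12.8, 7.10 and 9.69 CPM in WT and 12.1, 5.99 and 7.19 CPM in KO. TRAP held 0, 0.235 and 1.33 CPM in WT and 0.837, 0.244 and 2.44 CPM in KO. It had the widest spread of shares of the 5, from 0% in WT pool 1, with no TRAP read beside 44 input reads (95% interval up to 5.36%), to 33.98% (95% interval 14.9–70.6%, exact, from 10 and 33 reads) in KO pool 4. The log2 difference was −3.57 ± 0.50 (adjusted p = 1.8e-06), beside −4.49 ± 0.71 (adjusted p = 1.1e-05) for Trem2. For Tyrobp it was −4.51 without WT pool 3 and −4.16 without KO pool 4.

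**Figure D2:**
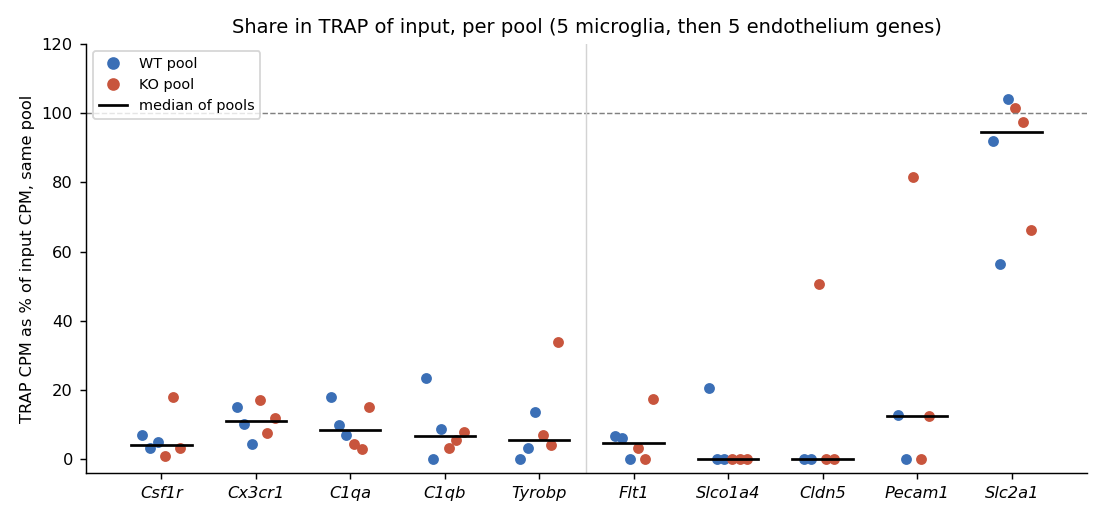
TRAP level as a percent of the input level of the same pool (vertical axis), for the 10 genes, with WT pools in blue, KO pools in red and the median as a black line. The dashed line is 100%. Microglia genes and Flt1 have medians of 4.14–11%, and Slc2a1 has 94.7%. Pecam1 has no point for WT pool 1 and Cldn5 none there, because their input held no read.

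The endothelium genes did not behave as 1 group. Flt1 and Slco1a4 were lower in TRAP, Slc2a1 did not pass the test, and Cldn5 and Pecam1 had too few reads to pass the filter on low counts in any comparison of all pools. Without Slc2a1 the 4 genes together had 12, 64 and 27 reads in WT input and 82, 74 and 59 in KO input, and 6, 3 and 0 in WT TRAP and 13, 0 and 5 in KO TRAP. These sums gave shares of 30.6%, 4.82% and 0% in WT and 18.7%, 0% and 9.50% in KO, a median of 7.16%.

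Flt1 (ENSMUSG00000029648.7, chr5:148373180-148537587, minus strand, 33 exons) encodes VEGF receptor 1. Input held 2.61, 7.78 and 3.96 CPM in WT and 8.76, 9.76 and 5.66 CPM in KO, on 9–44 reads. TRAP held 1, 2 and 0 reads in WT and 1, 0 and 4 in KO, that is at most 0.977 CPM. All 6 pools were lower in TRAP, at a median share of 4.61% (0–17.3%), with a log2 difference of −4.22 ± 0.58 (adjusted p = 1.2e-06) and an exact sign-flip p of 0.031. Without KO pool 4 the log2 difference was −5.05.

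Slco1a4 (ENSMUSG00000030237.7, chr6:141753961-141804720, minus strand, 17 exons), an organic anion transporter of the barrier, had 3, 18 and 2 reads in WT input and 25, 17 and 18 in KO input. The 6 TRAP libraries held 1 read in all, in WT pool 1. Against the floor of 3 reads per library, the KO level was at least 5.91-fold lower in TRAP than in input (4.54 against less than 0.767 CPM). The fitted log2 difference over both genotypes was −5.74 ± 0.97 (adjusted p = 3.2e-05), a value that depends on how 0 is treated in the fit, and it was −6.76 without WT pool 1 and −4.80 without WT pool 2. In its protein-coding transcripts, 103 of 3849 stretches of 50 bases also occurred in relatives such as Slco1a5 and Slco1a6, so that a small part of its reads could not be placed.

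Cldn5 (ENSMUSG00000041378.1, chr16:18776940-18778353, plus strand, 1 exon), the main tight junction claudin of the barrier, had 0, 4 and 1 reads in WT input and 7, 5 and 6 in KO input. In TRAP all libraries held 0 reads except KO pool 2, with 3. Pecam1 (ENSMUSG00000020717.11, chr11:106515531-106611942, minus strand, 17 exons), a junction protein of endothelium also made by platelets and leukocytes, had 0, 8 and 6 reads in WT input and 13, 8 and 9 in KO input, against 4, 1 and 0 in WT TRAP and 9, 0 and 1 in KO TRAP. For Pecam1, WT pool 1 was higher in TRAP than in input and KO pool 2 reached a share of 81.6% (95% interval 30.8–206%), while the others were at 0–12.8%. The exact sign-flip test gave p = 0.0625 for Cldn5, the smallest it can give with 1 pool at 0 in both fractions and the other 5 lower in TRAP, and p = 0.09375 for Pecam1. Fitted with edgeR without the filter, the log2 difference was −3.03 ± 1.25 for Cldn5 (adjusted p = 0.055) and −1.44 ± 0.78 for Pecam1 (adjusted p = 0.169). Without WT pool 1, Pecam1 passed the filter and was called lower (−2.35 ± 0.89, adjusted p = 0.034), while without any 1 of the other pools it was not called.

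Slc2a1 (ENSMUSG00000028645.4, chr4:118781316-118809935, plus strand, 12 exons) encodes the glucose transporter GLUT1, which is dense in barrier endothelium and is also made by astrocytes and other cells. Input held 8.70, 9.61 and 9.69 CPM in WT and 11.8, 7.76 and 9.58 CPM in KO. TRAP held 8.0, 5.41 and 10.1 CPM in WT and 12, 7.56 and 6.35 CPM in KO. The share ran from 56.3% (WT pool 2) to 104% (WT pool 3), with 2 of 6 pools at or above input, and the groups overlapped. The log2 difference was −0.22 ± 0.25 (adjusted p = 0.508), with a 95% interval from −0.70 to 0.26, which lies above the interval of each of the 7 genes that were called (the nearest, Cx3cr1, ended at −2.58). Of its exon bases, 105 overlap Gm12868 on the other strand.

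**Figure D3:**
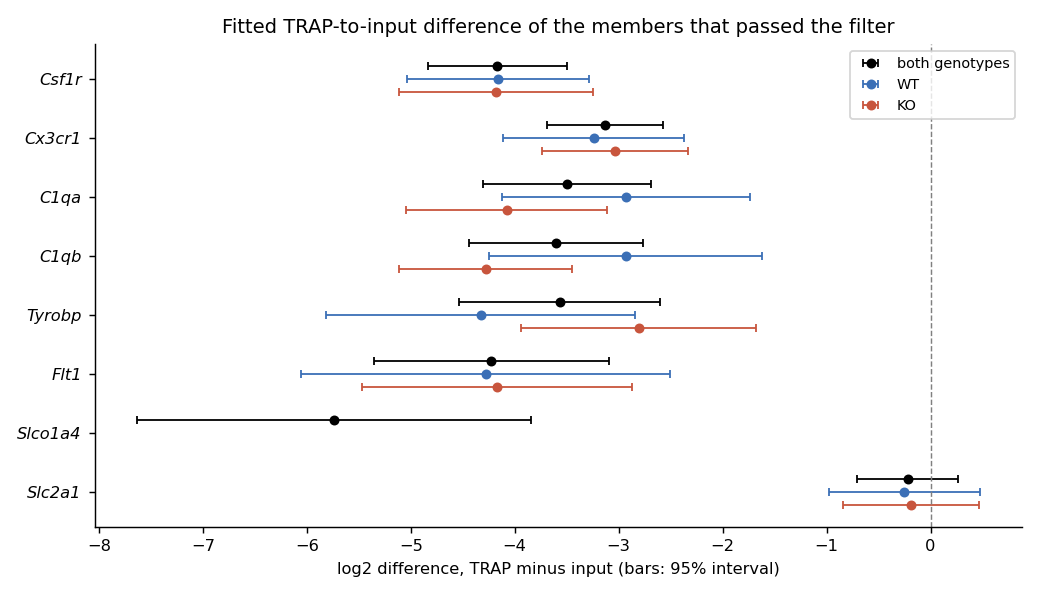
Fitted log2 difference, TRAP minus input, with its 95% interval (horizontal axis), for the 8 genes that passed the filter, over both genotypes (black), in WT (blue) and in KO (red). Slco1a4 is shown only over both genotypes, since it was not tested in WT and all KO TRAP libraries were at 0. Slc2a1 is the only gene whose intervals cross 0.

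Each genotype alone gave the same calls for the genes it could test. In WT, 6 of the 7 genes that passed the filter were called lower (all 5 microglia genes, between −4.33 and −2.93, and Flt1 at −4.28), where 13.1% of 12426 genes were. Of these, C1qb in WT had an adjusted p of 0.0075 with edgeR and 0.052 with DESeq2. Without WT pool 3, adjusted p rose to 0.072 for C1qa and 0.093 for C1qb, at log2 differences of −2.56 and −2.75. In KO, 7 of 8 were called lower (microglia genes between −4.28 and −2.81, Flt1 at −4.17 and Slco1a4), where 15.9% of 12463 genes were. Slc2a1 was not called in either (−0.25 ± 0.37 in WT and −0.19 ± 0.33 in KO). Without the filter, Pecam1 was not called in WT (−1.58 ± 1.52) or KO (−1.34 ± 0.85), nor Cldn5 in KO (−2.25 ± 1.29), nor Slco1a4 in WT (−4.22 ± 1.63, on 1 TRAP read). Cldn5 in WT was under the floor in both fractions. Leaving out other single pools moved the size of some differences by over 1.5-fold and ended no call. In WT, leaving out pool 1 gave −3.68 for C1qa, −4.36 for C1qb and −3.41 for Tyrobp, and without pool 3 Tyrobp was at −6.24 and still called. In KO, Csf1r was −3.49 without pool 2 and −5.58 without pool 3, and Flt1 was −3.43 without pool 3 and −5.86 without pool 4. Without KO pool 4, C1qa was −4.74 and Tyrobp −4.04.

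Further genes of the same cells were read from lists of their own. Of 25 further microglia genes, 22 passed the filter and 21 were called lower, beside 22.5% of all genes, with a median log2 difference of −3.61. Of the 57 genes in the 3 microglia lists, 10 passed the filter in TRAP alone, so most of these too were tested through input. Laptm5, a lysosomal membrane protein of leukocytes, had 11.7 ± 2.23 CPM in WT input and 10.6 ± 3.93 CPM in KO input and was at 0 in all KO TRAP libraries and at 0.730 ± 0.618 CPM in WT TRAP. Its share of summed input was 3.26%, and its fitted difference (−6.18 ± 0.55, adjusted p = 2.0e-09) depends on how 0 is treated. Sall1, a transcription factor of microglia also present in other brain cells, was lower by less (−1.96 ± 0.21). Cd68, a lysosomal protein of macrophages named here after its values were seen, was the 1 tested gene not called (−0.17 ± 0.41, adjusted p = 0.779).

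The 25 further endothelium genes were scarce, and 10 did not pass the filter. Of the 15 that did, 7 were called lower (Abcb1a, Eng, Gpr116, Ly6a, Mfsd2a, Ptprb and Vwf), none was called higher, and the median log2 difference was −0.68, where 22.5% of all genes tested were called lower and 19.6% higher. Vwf, the von Willebrand factor of endothelium and platelets, had 1 read in all TRAP libraries together, so that its fitted size (−6.15 ± 0.84, adjusted p = 1.7e-06) depends on how 0 is treated, and Ptprb, a receptor phosphatase of vessels, stood at −3.22 ± 0.48. Kdr, VEGF receptor 2 and the partner of Flt1, was at 3.14 CPM in input and 3.20 CPM in TRAP (−0.03 ± 0.45, adjusted p = 0.962). The 7 called genes had shares of 0.967–22.3% of summed input and mean TRAP levels of 0.0406–0.846 CPM. Of the 25 genes, 7 passed the filter in TRAP alone. Genes this low in TRAP were tested through their input level, which tilts such a count to lower, and it is given as a description. Egfl7, a secreted vessel protein, and the barrier transporters Slc7a5 and Slc16a1 were among the 8 not called, at log2 differences of −0.03 ± 0.27, −0.27 ± 0.20 and −0.52 ± 0.23, and they, like Abcb1a, Eng, Gpr116, Ly6a and Mfsd2a, were named after their values were seen.

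Of 16 genes of reactive microglia, 7 passed the filter and 6 were called lower, where 22.5% of all genes tested were, among them Apoe, a lipid carrier made mostly by astrocytes (518 ± 82.5 CPM in input and 52.2 ± 9.68 CPM in TRAP, −3.30 ± 0.11), and Axl, a receptor for dying cells (−3.02 ± 0.33). The 1 not called was Lpl, a lipase (0.35 ± 0.19, adjusted p = 0.146), named after its values were seen. Vcam1, an adhesion molecule of activated endothelium, was the 1 of 4 such genes tested and was called lower (−2.36 ± 0.41). It did not pass the filter in TRAP alone.

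**Figure D4:**
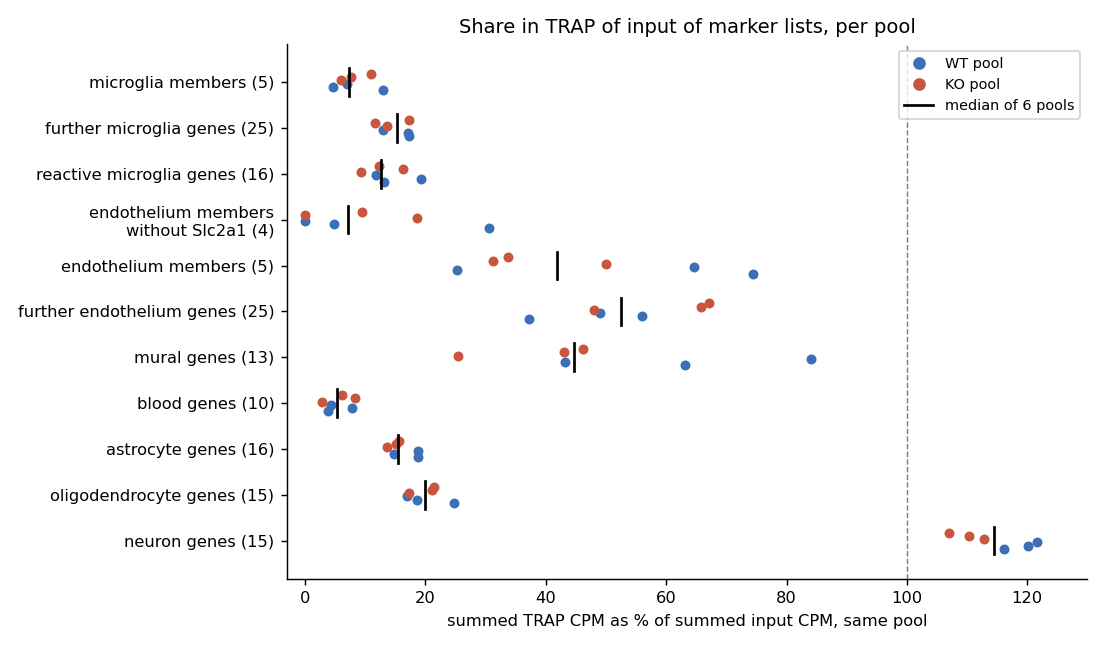
Summed TRAP level as a percent of summed input level of the same pool (horizontal axis), for marker lists with their number of genes. WT pools are blue, KO pools red, black lines are medians and the dashed line is 100%. The 5 microglia genes lie at 4.73–13%, astrocyte genes at 13.7–18.9% and neuron genes at 107–122%.

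Ligands of the microglial receptors were not called lower. Cx3cl1, the ligand of CX3CR1 that neurons make, was at 188 ± 16.3 CPM in input and 272 ± 40.8 CPM in TRAP (log2 difference 0.54 ± 0.09, adjusted p = 2.4e-05). It was the 1 gene called higher of the 9 tested in a list of 16 ligands, complement genes and signalling partners, and 4 were called lower. Over all genes tested 19.6% were called higher and 22.5% lower. Csf1 (−0.27 ± 0.28, adjusted p = 0.470) and Il34 (0.16 ± 0.19, adjusted p = 0.550), the ligands of CSF1R, were not called. C4b, a later complement component, and Plcg2, Syk and Itgb2, which act downstream of or beside the microglial receptors, were called lower, at log2 differences of −2.85 ± 0.47, −2.48 ± 0.51, −1.78 ± 0.42 and −2.71 ± 0.68, Syk and Itgb2 being named after their values were seen.

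Of 21 partners of the endothelium genes, 17 passed the filter, 8 were called lower and 1 was called higher, beside the same 22.5% and 19.6% of all genes. The 1 that was higher was Slc2a3, the neuronal glucose transporter GLUT3 (65.6 ± 8.66 CPM in input and 93.6 ± 8.66 CPM in TRAP, log2 difference 0.51 ± 0.10, adjusted p = 1.5e-04). Of the VEGF family, Vegfa, a ligand of FLT1 and KDR, was called lower, at a log2 difference of −0.80 ± 0.14, and so was Vegfb, a ligand of FLT1, at −0.92 ± 0.11. Pgf was not called (−0.80 ± 0.43, adjusted p = 0.139) and Vegfc did not pass the filter, both named after their values were seen.

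Genes of other glia of the punch were low in TRAP too. Median shares over 6 pools were 15.4% for a list of 16 astrocyte genes and 19.9% for 15 oligodendrocyte genes, against 7.32% for the 5 microglia genes and 15.4% for the 25 further ones. Blood genes, mostly haemoglobin, were at 5.30%, and mural genes (pericytes and vessel muscle) at 44.6%. All 16 astrocyte genes and all 14 oligodendrocyte genes tested were called lower (medians −2.82 and −3.33), where 22.5% of 13214 genes were. In TRAP alone 14 astrocyte and 8 oligodendrocyte genes passed the filter, so some were tested through input. Of 15 neuron genes, 11 were called higher, where 19.6% of 13214 genes were. No test between lists was made. By mean absolute distance over 6 pools from the mean log2 ratio of the microglia genes (−3.29, log2(CPM + 0.5) scale), the nearest of 9331 genes with at least 10 CPM in input were Apod, Ahnak, Nwd1, Slc1a3 and Snhg11 (distances 0.22–0.28). For the endothelium genes (mean −1.59) they were Luzp2, Btbd11, Utrn, D0H4S114 and Mgll (0.28–0.31). That mean joins genes as far apart as Flt1 (−3.07) and Slc2a1 (−0.23), and for those with few reads it depends on the 0.5 CPM added.

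Between genotypes no marker gene passed the test. In input, 8 of the 10 genes passed the filter, 0 were called by edgeR, 0 by DESeq2, and 0 had an unadjusted p under 0.05, where 0.031% of 12816 genes were called. For the microglia genes the values were Csf1r at 22.5 ± 6.44 CPM in WT and 21.8 ± 8.03 in KO (log2 KO minus WT −0.05, 95% interval −0.59 to 0.50), Cx3cr1 0.21 (−0.24 to 0.67), C1qa 0.30 (−0.51 to 1.12), C1qb 0.07 (−0.45 to 0.59) and Tyrobp −0.22 (−0.91 to 0.47). All adjusted p were 0.9996. With 3 pools a group, differences within these intervals could not be told from 0. Between the punches of KO and WT mice, fewer cells of a type and less RNA per cell cannot be told apart.

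Slco1a4 and Flt1 had higher point estimates in KO input and did not pass the test. Slco1a4 had 4.54 ± 1.20 CPM in KO and 1.81 ± 2.01 CPM in WT (log2 difference 1.29 ± 0.66, adjusted p = 0.9996), and the WT libraries were 0.870, 4.12 and 0.440 CPM, so that WT pool 2 lay inside the KO range of 3.77–5.92 CPM. Flt1 had 8.06 ± 2.14 CPM in KO and 4.79 ± 2.68 CPM in WT (0.73 ± 0.43, adjusted p = 0.9996). Slc2a1 had 9.73 ± 2.04 CPM in KO and 9.34 ± 0.549 CPM in WT (0.06, 95% interval −0.54 to 0.66). Without WT pool 2 the difference of Slco1a4 was 2.78 and without WT pool 3 it was 0.81, and that of Flt1 was 1.27 without WT pool 2 and 0.46 without WT pool 1, with adjusted p of 0.758 and more in all. Cldn5, which did not pass the filter, was the only gene of the 10 whose groups did not overlap in input (5–7 reads in KO, 0–4 in WT, unfiltered difference 1.72 ± 1.27), where 8.37% of the genes tested did not. Pecam1 did not pass the filter either (1.05 ± 0.945 CPM in WT and 2.27 ± 0.704 CPM in KO, unfiltered difference 1.04 ± 0.87), and its groups overlapped. Point estimates of other lists, not all of vessel cells, lay on the same side. Above 0 were 7 of the 8 mural genes tested (median 0.73) and all 3 fibroblast genes tested (median 1.5). So were 6 of 7 reactive microglia genes tested (median 0.39) and 10 of 16 astrocyte genes (median 0.08). Of the further microglia genes tested, 14 of 22 were below 0 (median −0.14). Among mural and fibroblast genes, edgeR gave an unadjusted p under 0.05 for Tagln (2.31), Notch3 (1.69), Acta2 (0.99), Col1a1 (1.71) and Col1a2 (1.5). Over all genes tested in input, 2.89% had such a p, and the genes listed here were picked with their values known. The larger endothelium lists did not lie to 1 side, with 7 of 13 further endothelium genes (median 0.13) and 9 of 17 partners (median 0.10) above 0, and 4 of 5 blood genes were below 0. None was called, and the part of these cells in the result was not tested.

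**Figure D5:**
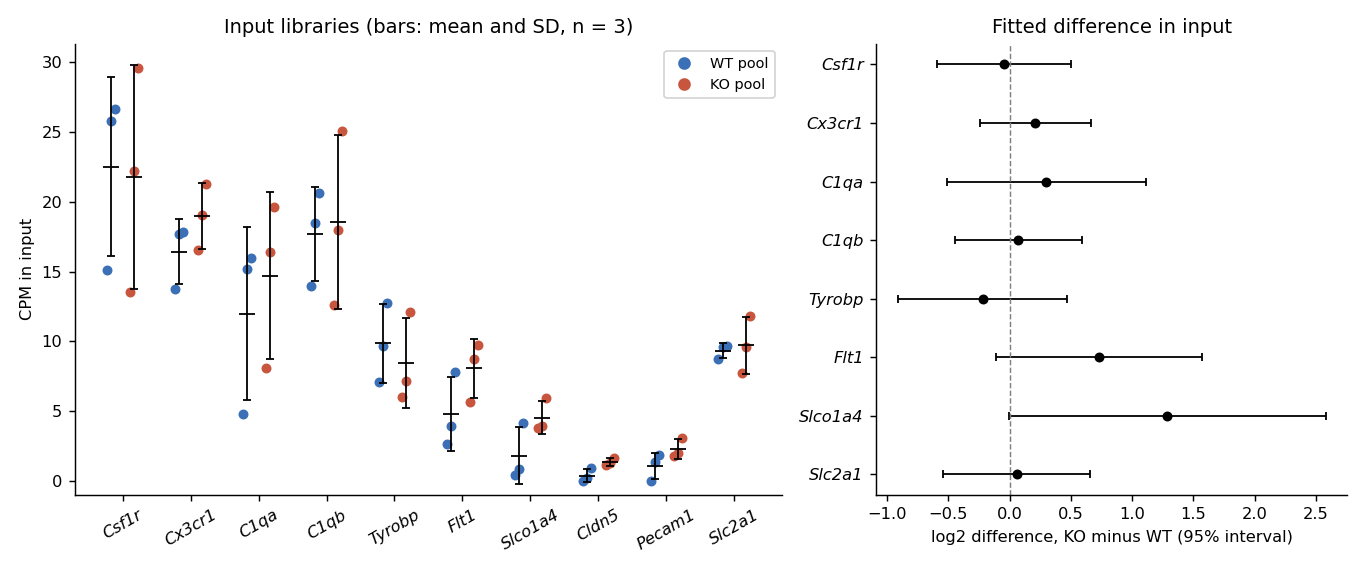
Left, CPM in input of each WT (blue) and KO (red) pool for the 10 genes, with mean and SD as black bars (n = 3). Right, fitted log2 difference, KO minus WT, with its 95% interval, for the 8 genes tested. All 8 intervals include 0, with Slco1a4 from −0.01 to 2.58.

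In TRAP only Slc2a1 passed the filter, at 7.84 ± 2.35 CPM in WT and 8.63 ± 2.97 CPM in KO (log2 difference 0.14 ± 0.39, adjusted p = 0.980). Here 0.0682% of 11727 genes were called and 11.9% did not overlap between groups, while the Slc2a1 groups overlapped. The microglia genes summed to 6.93 ± 4.81 CPM in WT TRAP (12.1, 2.59 and 6.11) and 6.45 ± 0.860 CPM in KO TRAP (6.42, 5.61 and 7.33), and the KO range lay within that of WT. Fitted without the filter, no marker gene of the 10 was called in TRAP, in input or for the ratio of both. An unadjusted p under 0.05 was then reached by 0 in TRAP, 1 in input (Slco1a4, 1.29 ± 0.62, adjusted p = 0.922) and 1 for the ratio (C1qb, −1.36 ± 0.66, adjusted p = 0.9999). At 0–27 reads per library a change in TRAP of these genes was not detectable at this depth unless it was large: C1qb had a 95% interval from −3.03 to 0.61. The other log2 differences without the filter were −0.05 ± 1.07 for Csf1r, 0.48 ± 0.82 for Cx3cr1, −0.80 ± 1.07 for C1qa, 1.21 ± 1.41 for Tyrobp and 1.35 ± 1.54 for Pecam1. Flt1, Cldn5 and Slco1a4 were under the floor of 3 reads on average in both TRAP groups, and no fold is given.

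The difference between genotypes of the TRAP to input ratio was not called for any of the 8 genes tested (adjusted p = 0.9999), where 0.00757% of 13214 genes were called, and none had an unadjusted p under 0.05. Point estimates on the log2 scale were near 0 for Csf1r (−0.01 ± 0.67), Cx3cr1 (0.22 ± 0.57), Flt1 (0.13 ± 0.85) and Slc2a1 (0.08 ± 0.49). C1qa (−1.14 ± 0.86) and C1qb (−1.34 ± 0.90) were lower in KO and Tyrobp (1.54 ± 1.04) higher, each on few TRAP reads. Slco1a4 had the point estimate farthest from 0 of the 8 (−3.08 ± 2.56), which rests on KO TRAP libraries without a read and depends on how 0 is treated. Cldn5 and Pecam1 did not pass the filter. Without WT pool 1, which gave 27 of the 33 C1qb reads of WT TRAP, the C1qb value was 0.07.

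Genes of the 3 other microglia lists gave no call between genotypes either. Of 57 genes, 38 were tested in input, where 4 had an unadjusted p under 0.05 (C4b 1.41, Serping1 1.98, Apoe 0.27 and Gpr34 −1.23, log2 KO minus WT), and 10 in TRAP, where none did. Of 50 genes in the 3 other endothelium lists, 31 were tested in input, with 3 under 0.05 (Abcb1a 2.0, Slco1c1 0.95 and Cgn 1.03), and 20 in TRAP, with 3, among them Slc7a5 (0.85) and Slc16a1 (0.91). For the ratio of TRAP to input, 3 of 38 microglia-list genes were under 0.05 (Laptm5 −4.65, with KO TRAP at 0, Serping1 −2.45 and Syk −1.87) and 4 of 33 endothelium-list genes (Cgn −2.08, Slc16a1 1.17, Slc7a5 0.90 and Lef1 3.50). None was called by edgeR or DESeq2. Over all genes tested 2.89% in input, 6.05% in TRAP and 2.71% for the ratio had an unadjusted p under 0.05. These genes were named after their values were seen.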

How the data were processed

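Raw read counts per gene of 12 libraries (total RNA, stranded SMARTer kit) were deposited. Per the labels and the methods, the authors aligned reads with TopHat to mm9, counted them per gene with HTSeq over Gencode vM1 and tested them with DESeq2. The strand setting of the counting and the tool versions were not given in the sources used here. Lines that name no gene stayed out of library sizes: reads outside genes were 20.6–27.1% and ambiguous reads 2.11–2.56% of all lines summed.

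Groups came from the labels. The 10 genes and all lists were chosen with earlier results of these data known. Differences were fitted with edgeR 4.0.16 (quasi-likelihood, TMM, filterByExpr by group, robust) in R 4.3.3 and called at a Benjamini-Hochberg adjusted p under 0.05 over all genes tested. TRAP was set against input over both genotypes and in each, and KO against WT in input, in TRAP and as the difference of both. A list is given by its counts and median. Per pool, differences of log2(CPM + 0.5) were tested with an exact two-sided sign-flip test (scipy 1.17.1). The p-values of edgeR measure the spread between pools of mice within a group, and the main fits had no term for the pairing of TRAP and input. The sign-flip test uses that pairing. Intervals of shares cover counting error only.

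All 10 genes were named in every comparison, without a fold where both groups were under the floor, or for the ratio where a gene did not pass the filter. From each list the 2 genes with the smallest p per direction among those called were named, with Cx3cl1, Csf1, Il34, Vegfa, Slc2a3, C1qc, Trem2 and Kdr wherever tested. For the lists this rule was applied to TRAP against input over both genotypes, and list genes named between genotypes were chosen after their values were seen. 1 gene that the rule names is not reported here. The genes most alike were the 5 with the smallest mean absolute difference in log2 ratio over pools, among genes of at least 10 CPM in input. TRAP and input of a pool come from the same mice, which pairs them. Deviations from group means correlated at 0.0582–0.106 within pools. WT and KO pools of the same number are different mice (−0.0697 to 0.00294). Alternatives were RLE or total-count scaling, other filters, DESeq2 1.42.0, other dispersion, mitochondrial genes left out, another pseudocount, the replicate block, and each pool left out.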

Additional observations from a re-analysis of the deposited data

How the results depend on the processing

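Calls of TRAP against input over both genotypes held under every alternative run for the 7 genes called, wherever tested, and in KO alone as well, while some sizes moved by over 1.5-fold with 1 pool left out. Pecam1 was called in addition without WT replicate 1. In WT alone C1qb was not called with DESeq2, and C1qa and C1qb were not called without WT replicate 3, which leaves 2 pools. With a filter of a mean of 10 counts Slco1a4 was not tested over both genotypes. With 1 pool left out the exact sign-flip test cannot go below 0.0625. The replicate block changed no call of the 10 genes. Median shares moved little between scalings, from 7.27% to 7.53% for the microglia genes and from 41.4% to 43.4% for the endothelium genes. Slc2a1 made up 76.8–100% of the summed endothelium level in TRAP, so the latter share is mostly that of Slc2a1.

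Genes called over the whole table moved more, and the cause was not tested. For KO against WT in TRAP (8 genes), 41 were called with no filter and 18 with DESeq2. For KO against WT in input (4), 19 were called with no filter, 8 with DESeq2, 20 with the replicate block and 7 in a fit of all 12 libraries. For the difference between genotypes of the TRAP to input ratio (1), 0 were called without robust dispersion. None of the 10 genes was among the calls of these fits. With the replicate block, log2 KO minus WT in input turned to 0.0081 for Csf1r and 0.057 for Tyrobp, and the Csf1r ratio difference to 0.093, or to 0.023 with total counts.

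With 1 replicate left out, genes called ran from 1289 to 3243 for TRAP against input in WT (3096 with all), from 1982 to 3181 in KO (3626 with all), from 5 to 20 for KO against WT in TRAP, from 1 to 5 in input and from 0 to 1 for the ratio difference. Log2 KO minus WT in input ran from −0.32 to 0.20 for Csf1r, −0.084 to 0.59 for C1qa, −0.20 to 0.28 for C1qb, −0.56 to 0.0042 for Tyrobp and −0.10 to 0.20 for Slc2a1, and in TRAP from −0.17 to 0.35 for Slc2a1. The ratio difference ran from −1.41 to 0.68 for Csf1r, −0.13 to 0.73 for Cx3cr1, −1.74 to 0.070 for C1qb, −1.58 to 0.85 for Flt1 and −0.14 to 0.26 for Slc2a1. Depth limits Cldn5, Pecam1, and every gene of the 10 but Slc2a1 in TRAP.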

Other observations

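Vessel-associated cells other than endothelium were mixed in TRAP. Of 13 mural genes, 8 were tested, 6 were called lower and 1 higher by edgeR over both genotypes. Over all genes tested 22.5% were called lower and 19.6% higher, which holds for the lists below as well. In TRAP alone 4 of the 13 mural genes passed the filter. The others were tested through input, which tilts such a count to lower. Notch3, a receptor of vessel muscle, had a log2 difference of −4.60 ± 0.83 and Vtn, a pericyte protein, −3.49 ± 0.43, while Cspg4 (NG2), which oligodendrocyte precursors also make, was called higher (0.95 ± 0.22). In WT Cspg4 was at 7.56 CPM in input and 23.9 CPM in TRAP (1.69 ± 0.33, called), and in KO at 11.3 and 13.1 CPM (not called). The difference of these ratios was −1.47 ± 0.44, which edgeR did not call (adjusted p = 0.9999). Of 5 fibroblast genes, 3 were tested, with Col1a2 at −3.70 ± 0.65, Dcn at 1.16 ± 0.23, and Col1a1 at −1.16 ± 0.45. The list's summed level, most of it Dcn, was 122–298% of input, while its median log2 difference was −1.16. Of 10 blood genes, all 5 tested were called lower, beside 22.5% of all genes, led by the haemoglobin genes Hbb-b1 (−4.94 ± 0.26) and Hba-a2 (−4.73 ± 0.45). Of 7 genes of border macrophages 2 were tested and both were called lower, F13a1 at −4.01 ± 0.76 and Mrc1 at −2.85 ± 0.75. No blood or border macrophage gene passed the filter in TRAP alone. They were tested only through input, which tilts such counts to lower, and the counts are given as a description. Of 6 choroid plexus and ependymal genes, 4 were tested and 1 was called lower, the cilia factor Foxj1 (−2.31 ± 0.69).

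Among glia, Ndrg2 (−3.22 ± 0.10) and Aldoc (−2.83 ± 0.08), an astrocyte stress-response protein and a glycolytic enzyme, and Sox10 (−3.83 ± 0.21) and Olig1 (−3.48 ± 0.19), transcription factors of the oligodendrocyte lineage, were called lower. Among neuron genes, Eno2 (0.73 ± 0.06), a neuronal enolase, and Snap25 (0.54 ± 0.05), a synaptic fusion protein, were called higher, and Map2 (−0.97 ± 0.06), a dendritic cytoskeleton protein, was the 1 called lower. The summed neuron level in TRAP was 116–122% of input in WT pools and 107–113% in KO pools. That difference was not tested, and none of the 15 neuron genes was called between genotypes in TRAP (edgeR, smallest adjusted p = 0.345).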
